A study of Mus musculus with 4 samples.

Results

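Toll-like receptors are membrane proteins of innate immune cells that bind microbial molecules through a leucine-rich ectodomain and signal through a cytoplasmic TIR domain. The genes described are the receptors Tlr1, Tlr2, Tlr3, Tlr5, Tlr6, Tlr7 and Tlr9, with Unc93b1, which carries the nucleic acid receptors to endosomes, and Myd88, an adaptor that most of these receptors share. They were chosen by name, as every probe set whose platform annotation gives 1 of these 9 symbols. That gave 12 probe sets of 22626 on both array types, and 9 genes of 12393. Of the 9 genes, 8 had a probe set that passed the filter on low signals, and Tlr3 did not. Tlr1, Tlr2, Tlr5 and Tlr6 sit at the cell surface and bind lipoproteins or, for Tlr5, flagellin. Tlr3, Tlr7 and Tlr9 sit in endosomes and bind double-stranded RNA, single-stranded RNA and unmethylated CpG DNA.

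The cells were granulocyte/monocyte progenitors (GMP), the bone marrow cells that give rise to granulocytes and monocytes, sorted by flow cytometry from mice of 10 to 16 weeks. The tested mice lacked Icsbp, also called Irf8, a DNA-binding protein of the interferon regulatory factors, and the others were Icsbp wild type. Each genotype had 1 array of the 430A type and 1 of the larger MOE430_2 type, 4 arrays in all, each with RNA of a separate pool of at least 8 Icsbp-deficient or at least 10 wild type mice. For the wild type 430A array the label gives a mixed C57/Bl6 and S129Ola background and no genotype, so its group comes from the design text of the series. That text and the labels do not give the strain of the other mice or which part of Icsbp was deleted.

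The arrays correlated at 0.980 (430A) and 0.979 (MOE430_2) between the genotypes of a type, on the normalized log2 scale over the shared probe sets. The deposited signals of the 430A type differed in scale, with a trimmed mean of 167 on the Icsbp-deficient array and 498 on the wild type array. Each array was therefore scaled to a trimmed mean of 500, and "scaled signal" below means this value. Both Irf8 probe sets still gave signal on the Icsbp-deficient arrays, with mean log2 ratios of -0.48 and 0.06, and with the deleted part not known they do not check the labels. Of the GMP markers Kit, Cd34, Mpo, Elane, Prtn3, Ctsg and Ms4a3, all 7 passed the filter. Cd34 was the 1 that changed, with a ratio of -1.73 ± 0.13 (limma adjusted p = 3.28e-05), and Kit was at 0.28 ± 0.11 (adjusted p = 0.190).

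Log2 ratios below set Icsbp-deficient over wild type GMP after adding an offset of 50 to the scaled signal, which understates changes of dim genes, and ± is limma's moderated standard error over n = 2 array types. Of 7820 genes tested, 579 passed an adjusted p of 0.05, which is 7.4%, with 322 higher (4.12%) and 257 lower (3.29%). Of the 8 members tested 1 passed, Tlr7, and it was higher in Icsbp-deficient GMP. At an unadjusted p under 0.05 the members were Tlr7 and Tlr6, 2 of 8, beside 21.3% of all genes. The bulk signal does not tell fewer cells with a transcript from less of it in each cell. The plot of scaled signals shows the values behind these ratios.

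**Figure D1:**
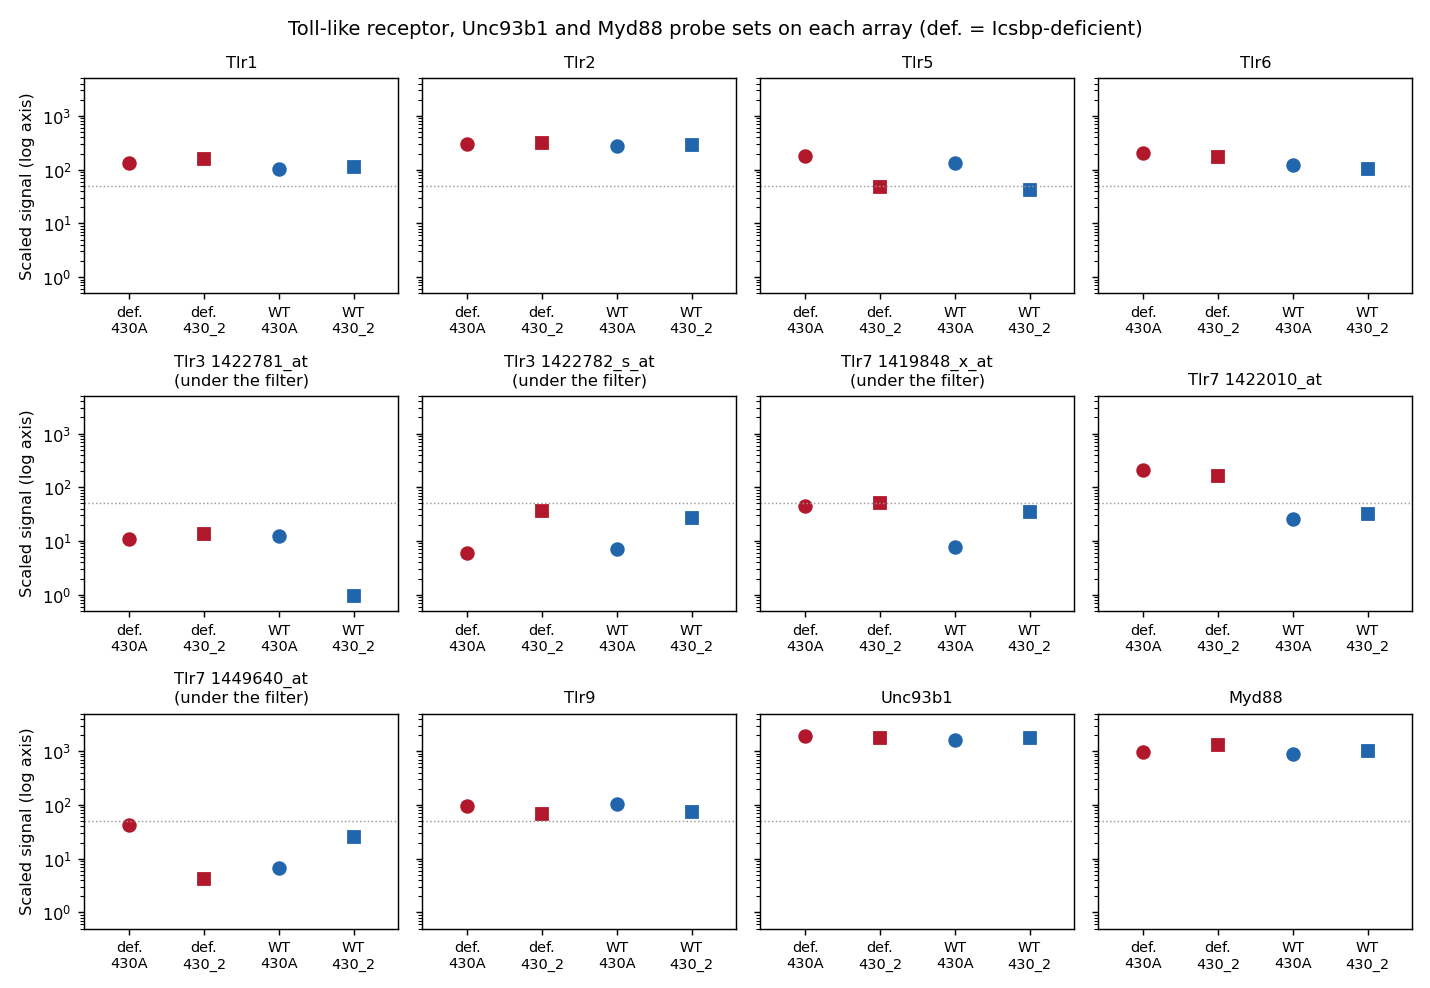
Scaled signal (log axis, arbitrary units) of the 12 probe sets on each of the 4 arrays, with the 2 Icsbp-deficient arrays (red) left of the 2 wild type arrays (blue), circles for 430A and squares for MOE430_2; the dotted line is the offset of 50. The Tlr7 probe set 1422010_at is at 212 and 159.5 on the Icsbp-deficient arrays and at 25.2 and 32.1 on the wild type arrays, while Tlr2 lies between 276 and 308 on all 4.

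Irf8 is known to bind DNA with partner factors at the interferon-stimulated response element and, with the ETS factor PU.1, at ETS-IRF composite elements. RefSeq promoter windows of GRCm38.p6, 250 bases before to 50 after each gene's start, were searched on both strands for GAAANNGAAA and GGAANNGAAA as the letters of these elements. The table held 9 windows for 7 of the 9 genes, all but Tlr7 and Unc93b1. The first motif was found in 1 window each of Tlr6 and Myd88, 2 of the 9 windows, and in 1131 of all 32851 windows (3.44%). The second was found in 0 of the 9 windows, and in 892 of all windows (2.72%). The 250 bases upstream of the start are shown for the 2 genes with a match, on the gene's own strand with the matched bases in capitals.
Tlr6, chr5:64959167-64959416, minus strand: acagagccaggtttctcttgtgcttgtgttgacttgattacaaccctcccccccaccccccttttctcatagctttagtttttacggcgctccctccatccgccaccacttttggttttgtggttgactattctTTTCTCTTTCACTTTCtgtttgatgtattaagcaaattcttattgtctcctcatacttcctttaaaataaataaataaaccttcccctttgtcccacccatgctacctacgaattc
Myd88, chr9:119340019-119340268, minus strand: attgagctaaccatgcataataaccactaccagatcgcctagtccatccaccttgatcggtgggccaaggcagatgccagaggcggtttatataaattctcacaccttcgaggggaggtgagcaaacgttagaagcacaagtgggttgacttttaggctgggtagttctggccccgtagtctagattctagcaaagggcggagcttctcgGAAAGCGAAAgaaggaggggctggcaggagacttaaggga
The capitals in Tlr6 hold 2 overlapping matches on the opposite strand, from 116 to 101 bases before the start of 1 of its 2 windows. The match in Myd88 lies on the same strand, from 40 to 31 bases before the start. These are matches of letters, and no binding was measured.

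Among the surface receptors, Tlr6 had the highest ratio of the 4 tested. Tlr6, which pairs with Tlr2 to bind diacylated lipoproteins, had scaled signals of 207 and 173 in Icsbp-deficient GMP (430A array, then MOE430_2), against 124 and 102 in wild type GMP. Both Icsbp-deficient values lay above both wild type values. The log2 ratio was 0.55 for the 430A pair and 0.60 for the MOE430_2 pair, a mean of 0.58 ± 0.19 (limma adjusted p = 0.0950, 95% interval 0.17 to 0.99), so it did not pass after adjustment over all genes. In rank, 4.14% of the tested genes had a higher mean ratio than Tlr6.

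Tlr1, which pairs with Tlr2 to bind triacylated lipoproteins, lies next to Tlr6 on chromosome 5 with 0 coding genes between them. Its scaled signals were 133 and 155 in Icsbp-deficient GMP and 102 and 112 in wild type GMP, again without overlap. The mean log2 ratio was 0.33 ± 0.20 (limma adjusted p = 0.364, 95% interval -0.10 to 0.76), with 0.26 for the 430A pair and 0.40 for the MOE430_2 pair. The ratios of these neighbours were thus positive on both array types, and neither passed the test.

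Tlr2, the common partner of both, differed least among the surface receptors. Its scaled signals were 300.4 and 308 in Icsbp-deficient GMP and 276 and 289 in wild type GMP, at a mean log2 ratio of 0.11 ± 0.15 (limma adjusted p = 0.739, 95% interval -0.23 to 0.45). The groups did not overlap, but the gap was within the standard error. Tlr5, the flagellin receptor, had scaled signals of 181 and 47.6 in Icsbp-deficient GMP and 131 and 41.8 in wild type GMP. The groups overlapped because its signal was higher on both 430A arrays than on both MOE430_2 arrays. Its mean log2 ratio was 0.23 ± 0.21 (adjusted p = 0.602, 95% interval -0.25 to 0.70). The ratio was 0.34 for the 430A pair and 0.11 for the MOE430_2 pair. Its direction turned with 1 array left out in the unblocked model, to -0.39 without the Icsbp-deficient 430A and -0.27 without the wild type MOE430_2 array, and without the Icsbp-deficient MOE430_2 array it was 0.84. Values of that model also hold the difference between array types.

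Across the 8 tested members both Icsbp-deficient scaled signals lay above both wild type signals for 4, Tlr1, Tlr2, Tlr6 and Tlr7, and the groups overlapped for the other 4. Over all tested genes this held for 12.3%, and for 14.4% both Icsbp-deficient signals lay below both wild type signals.

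Among the endosomal receptors, Tlr7 was higher in Icsbp-deficient GMP and Tlr9 did not pass the test. Tlr7, the receptor for single-stranded RNA, was read by 3 probe sets. The probe set 1422010_at had scaled signals of 212 and 159.5 in Icsbp-deficient GMP (430A array, then MOE430_2), against 25.2 and 32.1 in wild type GMP. Both Icsbp-deficient values were above both wild type values, and both wild type values lay below the offset. After the offset and normalization the log2 ratio was 1.80 and 1.37, a mean of 1.59 ± 0.22, or 3.01-fold (limma adjusted p = 0.00179). Only 0.230% of tested genes had a higher mean ratio.

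This probe set passed the filter through the Icsbp-deficient arrays, where it stood at percentiles 53.4 and 54.1 of all probe sets, against 17.6 and 28.6 on the wild type arrays. Its mean over the 4 arrays was at percentile 41.8, just above the filter at 40. On its wild type signals alone it would have stayed under that filter. Without the filter its limma adjusted p was 0.0148, where 2.32% of all genes passed. With every tested probe set in 1 fit it was 0.00430, where 5.13% of probe sets passed. The call rests on array type as a block: without the block the adjusted p was 0.615, and leaving out any 1 of the 4 arrays in that unblocked model gave ratios between 1.44 and 1.74 with adjusted p from 0.908 to 1.0.

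The other Tlr7 probe sets both stem from 1 expressed sequence tag and were dim, and neither was tested. The probe set 1419848_x_at had 44.9 and 50.8 in Icsbp-deficient GMP and 7.82 and 35.2 in wild type GMP, with log2 ratios of 0.73 for the 430A pair and 0.25 for the MOE430_2 pair. Both of its ratios were positive and the groups did not overlap, at signals near or below the offset of 50. The probe set 1449640_at had 41.6 and 4.10 in Icsbp-deficient GMP and 6.82 and 24.9 in wild type GMP, with log2 ratios of 0.71 and -0.46. It disagreed in sign between the array types, at signals below the offset of 50 on all 4 arrays.

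Tlr9, the receptor for CpG DNA, had scaled signals of 95.4 and 67.8 in Icsbp-deficient GMP and 103 and 72.6 in wild type GMP. The groups overlapped, and the mean log2 ratio was -0.05 ± 0.22 (limma adjusted p = 0.927, 95% interval -0.52 to 0.43). The ratio was -0.07 for the 430A pair and -0.02 for the MOE430_2 pair. In the unblocked model, whose values also hold the difference between array types, it was 0.10 without the Icsbp-deficient MOE430_2 and 0.12 without the wild type 430A array. The interval covers 0, so the sign of Tlr9 is not settled. Tlr3, the receptor for double-stranded RNA, had 2 probe sets under the filter. On 1422782_s_at its scaled signals were 5.98 and 35.9 in Icsbp-deficient GMP and 7.12 and 27.1 in wild type GMP, and on 1422781_at 10.8 and 13.2, against 12.4 and 0.935. All these values lay below the offset, so they give no usable ratio for Tlr3.

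**Figure D2:**
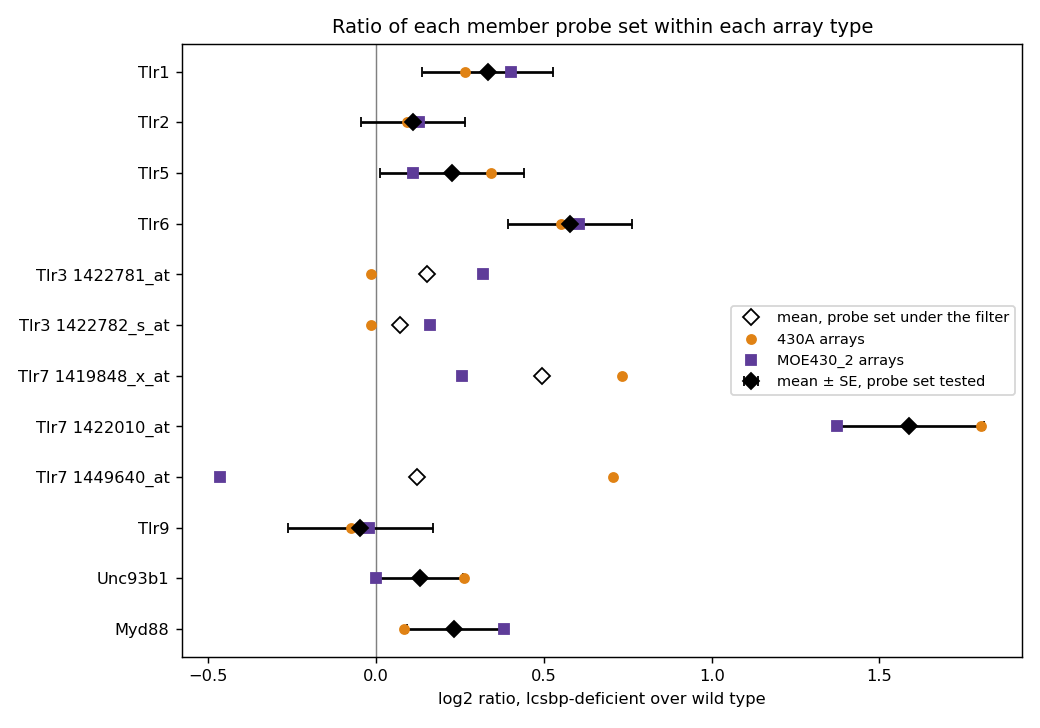
Log2 ratio of Icsbp-deficient over wild type for each of the 12 probe sets on the 430A arrays (orange circles) and MOE430_2 arrays (purple squares), with the mean as a black diamond and its moderated standard error where the probe set was tested (open diamonds were not). Tlr7 1422010_at stands at 1.59, Tlr6 follows at 0.58, and the other tested probe sets lie between -0.05 and 0.33.

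Set side by side over all their genes without the filter, with 1 probe set per gene, the 4 surface receptors had a median log2 ratio of 0.28, and the 3 endosomal receptors 0.07. Over all 12393 genes the median was 0.00. By array type the surface median was 0.30 (430A) and 0.26 (MOE430_2), and the endosomal median was -0.02 (430A) and 0.16 (MOE430_2). The endosomal median is the ratio of Tlr3, whose signals lay below the offset, and the endosomal genes ranged from -0.05 for Tlr9 to 1.59 for Tlr7. The surface genes ranged from 0.11 for Tlr2 to 0.58 for Tlr6. Over the endosomal genes that passed the filter, Tlr7 and Tlr9, the median was 0.77, so the order of the surface and endosomal medians turns with the filter. The difference between surface and endosomal receptors was not tested. The 4 surface receptors had positive ratios, as did 3783 of all 7820 tested genes, and 0 of the 4 passed. With the values as deposited, where the 430A arrays keep their unequal scale, all 4 were negative, with a median of -0.29 beside -0.67 over all genes.

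Unc93b1, the transmembrane protein that moves Tlr3, Tlr7 and Tlr9 from the endoplasmic reticulum to endosomes, had scaled signals of 1910.5 and 1729.7 in Icsbp-deficient GMP and 1595 and 1743 in wild type GMP. The groups overlapped. Its log2 ratio was 0.26 for the 430A pair and 0.00 for the MOE430_2 pair, a mean of 0.13 ± 0.13 (limma adjusted p = 0.612, 95% interval -0.15 to 0.41). Myd88, which joins receptor TIR domains to IRAK kinases, had scaled signals of 962 and 1318 in Icsbp-deficient GMP and 903 and 1014 in wild type GMP. These overlapped as well, and its mean log2 ratio was 0.23 ± 0.14 (adjusted p = 0.374, 95% interval -0.07 to 0.54), with 0.08 for the 430A pair and 0.38 for the MOE430_2 pair. In the unblocked model Myd88 was at 0.45 without the Icsbp-deficient 430A array and 0.01 without the Icsbp-deficient MOE430_2 array, and Unc93b1 lay between 0.06 and 0.20 with 1 array left out.

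The genes whose pair of ratios lay nearest to that of Tlr7, by Euclidean distance over the 2 array types among 7820 genes, were Sgip1, F10, S100a9, Gpc1 and Mocos. Their distances were between 0.139 and 0.206 log2 units. Sgip1 was at 1.68 for the 430A pair and 1.31 for the MOE430_2 pair. S100a9, a calcium-binding protein abundant in neutrophils and monocytes, was at 1.67 and 1.47. F10, coagulation factor X, was at 1.76 and 1.52. The likeness is over 2 ratios only.

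**Figure D3:**
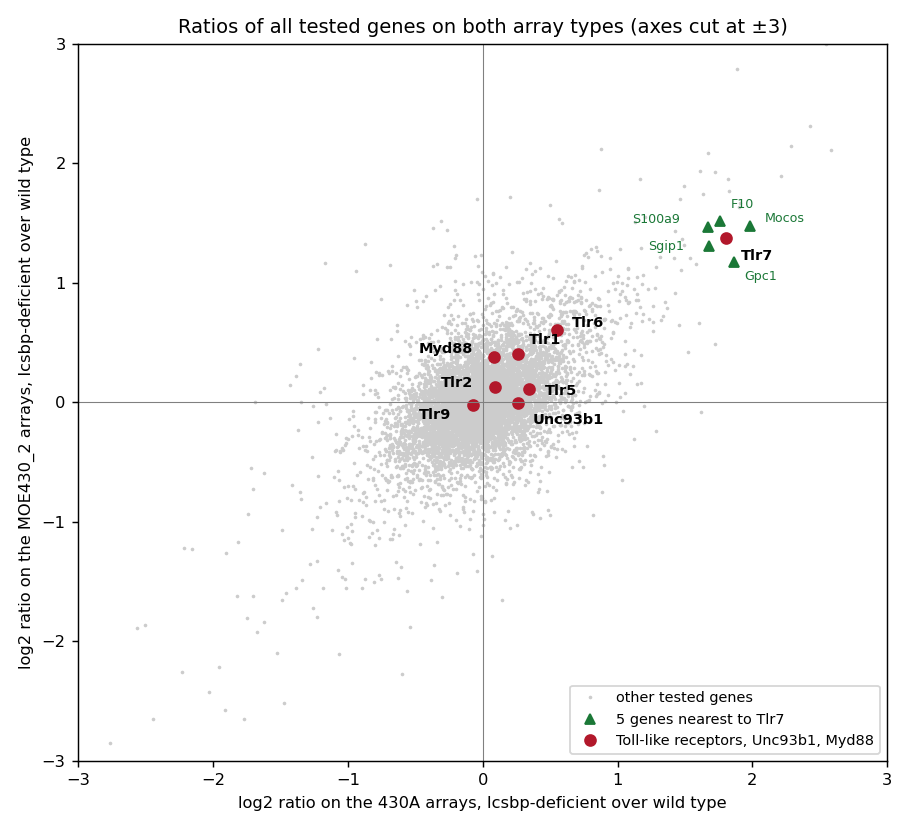
Log2 ratio of Icsbp-deficient over wild type on the 430A arrays (x axis) against the MOE430_2 arrays (y axis) for the 7820 tested genes, with the 8 tested members in red and the 5 genes nearest to Tlr7 as green triangles; 6 genes lie outside the axes. Tlr7, at 1.80 and 1.37, stands apart from the other members, which lie within the cloud of all genes.

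Markers of other cell types moved in both directions in these samples. Of 8 neutrophil markers 7 rose, and their summed scaled signal was 28422 and 54426 in Icsbp-deficient GMP (430A array, then MOE430_2), against 10631 and 19954 in wild type GMP. Of 7 tested monocyte and macrophage markers 3 rose (Ccr2, F13a1 and Cd68) and Ctss fell, with sums of 17007 and 24005 against 10104 and 14869.8. Of 3 tested conventional dendritic markers, H2-Aa and Cd74 fell, and Flt3 was at -0.05 (limma adjusted p = 0.908). Under the filter, Itgax was at 0.24, Zbtb46 at 0.26 and Xcr1 at -0.05. Of 6 basophil, mast cell and eosinophil markers 6 fell. Fcer1a among them, at 51.5 and 24.9 in Icsbp-deficient GMP, passed the filter through its wild type arrays (232 and 385). The erythroid marker Car1 fell by 2.37 ± 0.35 (limma adjusted p = 0.00230), the 1 of 3 tested that passed. Its Icsbp-deficient signals, 43.1 and 2.52, lay below the offset, so it passed the filter through its wild type arrays. The megakaryocyte marker Itga2b fell by 0.86 ± 0.17 (limma adjusted p = 0.0109), the 1 of 2 tested that passed. Gp1bb, the other tested, was at 0.24 (limma adjusted p = 0.548). Under the filter, Ppbp was at 0.22 and Pf4 at -0.43. Plasmacytoid dendritic cells and B cells are among the cells known for high Tlr7. Of 7 plasmacytoid dendritic markers 6 were on the shared probe sets and 2 passed the filter, with 0 called. The sums over these 6, with those under the filter, were 679 and 731 in Icsbp-deficient GMP and 905 and 678 in wild type GMP. Of 7 B cell markers 6 were on the shared probe sets and 3 were tested with 0 called, and all 3 had positive ratios. These were Igll1 at 0.71 (limma adjusted p = 0.0646), Vpreb1 at 0.64 (adjusted p = 0.143) and Cd79b at 0.31 (adjusted p = 0.256). Ebf1, under the filter, was at -0.33. The sums over all 6 were 1006 and 805, against 750.0 and 608. Of 5 T and NK cell markers on the shared probe sets 0 passed the filter. The part of these markers in the Tlr7 ratio was not tested.

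Tlr7 lies on chromosome X next to Tlr8, and the labels do not give the sex of the pooled mice. The X-linked Xist, looked up after the Tlr7 values were seen, had scaled signals of 851 and 2589.7 in Icsbp-deficient GMP and 1329.9 and 558 in wild type GMP on its probe set 1427262_at. The log2 ratio of this probe set was -0.62 for the 430A pair and 2.14 for the MOE430_2 pair. The probe set 1427263_at was at -0.14 and 0.81, and 1436936_s_at, the 1 that stood for the gene in the fit, was at -0.03 and 0.18 (mean 0.07 ± 0.13, limma adjusted p = 0.779). The Y-linked Eif2s3y was at 0.84 for the 430A pair and 0.07 for the MOE430_2 pair (adjusted p = 0.195), and Kdm5d at 0.62 and -0.11 (adjusted p = 0.556). The brightest Uty probe set was at 0.31 and 0.10 (adjusted p = 0.603). The part of sex in the Tlr7 ratio was not tested. Tlr8, also a receptor for single-stranded RNA, was under the filter, with scaled signals of 121 and 58.3 in Icsbp-deficient GMP and 102 and 3.74 in wild type GMP. Tlr4, the lipopolysaccharide receptor, had a mean log2 ratio of 0.25 ± 0.17 on the probe set that stood for the gene (limma adjusted p = 0.451). Its other shared probe set disagreed in sign, at -0.22 for the 430A pair and 0.48 for the MOE430_2 pair.

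The rest of the pathway comprised 76 further genes, of which 57 were on the shared probe sets and 46 were tested. Of these 6 rose, 3 fell and 37 did not pass, beside 7.4% called over all genes, and their median log2 ratio was 0.01, against -0.01 for 7820 genes. The 9 changed genes were Ctsb, Ctsl, Ikbke, Peli2, Fos and Nfkbia, which were higher, and Ly86, Ctss and Irf5, which were lower. Without the filter 5 of the further genes were called, and without array type as a block 1 was.

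Of 5 tested surface co-receptors 1 fell, Ly86, which forms a complex with the receptor relative Cd180. Its scaled signals were 15.6 and 9.46 in Icsbp-deficient GMP against 1517 and 1878 in wild type GMP. The mean log2 ratio was -4.79 ± 0.17 (limma adjusted p = 1.95e-07). The Icsbp-deficient signals lay below the offset, so Ly86 passed the filter through its wild type arrays. Cd14, a co-receptor for several surface receptors, was at -0.12 ± 0.15 (adjusted p = 0.703) and Ly96, the partner of Tlr4, at 0.12 ± 0.20 (adjusted p = 0.783).

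Of 7 tested genes for folding, transport and processing of the endosomal receptors 2 rose and 1 fell, all 3 of them cathepsins. Endosomal receptors are cut by lysosomal proteases before they signal. Ctsb had scaled signals of 4881 and 5734 in Icsbp-deficient GMP and 3357 and 3714 in wild type GMP, at a mean log2 ratio of 0.54 ± 0.10 (limma adjusted p = 0.0103). Ctsl had 834 and 1022 against 506 and 755 in wild type GMP, at 0.55 ± 0.14 (adjusted p = 0.0387). Ctss went the other way, with 275 and 161 in Icsbp-deficient GMP and 496 and 552 in wild type GMP, at -1.12 ± 0.19 (adjusted p = 0.00501). The groups did not overlap for any of these cathepsins, which are named because they passed the test on the same values. Over all tested genes, both Icsbp-deficient signals lay above both wild type signals for 12.3% and below for 14.4%. Ctsk, under the filter, was at 0.04. The chaperones that fold Toll-like receptors did not pass, with Hsp90b1 at -0.16 ± 0.10 (adjusted p = 0.404) and its partner Cnpy3 at -0.02 ± 0.15 (adjusted p = 0.952).

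Of 15 tested kinases and ubiquitin ligases 2 rose. Ikbke, a kinase that phosphorylates interferon regulatory factors, had scaled signals of 1324 and 905 in Icsbp-deficient GMP and 578 and 669 in wild type GMP, at a mean log2 ratio of 0.78 ± 0.17 (limma adjusted p = 0.0196). Peli2, an E3 ligase of the Pellino family that acts on IRAK kinases, had 138 and 122 against 25.7 and 59.8, at 1.01 ± 0.24 (adjusted p = 0.0291). Its wild type signals lay below those of Tlr9 (103 and 72.6), whose mean over the arrays was at percentile 41.5, just above the filter. Like Tlr7, Peli2 thus passed the filter through its Icsbp-deficient arrays. Of the cascade below Myd88, Irak1 at 0.21 ± 0.14 (limma adjusted p = 0.418), Traf6 at 0.06 ± 0.18 (adjusted p = 0.890) and Map3k7 at 0.08 ± 0.14 (adjusted p = 0.783) did not pass. Traf6 disagreed in sign between the array types, at 0.34 for the 430A pair and -0.21 for the MOE430_2 pair. Probe sets found only on the MOE430_2 array were at 0.57 and 0.99 for Traf6 and 0.84 for Map3k7. Their wild type signals lay below the offset. Irak4, a listed kinase, gave no value here. Of 3 adaptors tested, Myd88 among them, 0 passed, with Pik3ap1 at 0.21 ± 0.19 and Tirap at -0.03 ± 0.15.

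Of 7 tested downstream transcription factors Fos rose and Irf5 fell. Irf5, which acts below Myd88 in the induction of inflammatory cytokines, had scaled signals of 116 and 95.5 in Icsbp-deficient GMP and 251 and 225 in wild type GMP, at a mean log2 ratio of -0.86 ± 0.18 (limma adjusted p = 0.0157). Fos, an AP-1 subunit, had 632 and 535 against 209.9 and 299 in wild type GMP, at 1.08 ± 0.17 (adjusted p = 0.00365). Irf7, which induces type I interferon below Tlr7 and Tlr9, was at 0.01 ± 0.20 (adjusted p = 0.985). Nfkb2 was at 0.62 ± 0.21 and did not pass (adjusted p = 0.110).

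Of 6 tested inhibitors Nfkbia, which holds NF-kappaB in the cytoplasm, rose, with scaled signals of 3704 and 3705 in Icsbp-deficient GMP and 2586 and 1981 in wild type GMP, at 0.69 ± 0.12 (limma adjusted p = 0.00736). On the MOE430_2 pair this probe set was at 0.87. The Nfkbia probe set found only on that array type had 1440 and 1261, a log2 ratio of 0.19. Tollip and Sigirr, which dampen signalling at the receptor, were at 0.24 ± 0.14 and -0.17 ± 0.14 and did not pass. Socs1, also an inhibitor, was under the filter with log2 ratios of 0.54 for the 430A pair and 0.57 for the MOE430_2 pair. Of 3 tested genes for nucleic acid breakdown 0 passed, the largest ratio being that of the exonuclease Pld3 at 0.72 ± 0.22 (adjusted p = 0.0809).

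**Figure D4:**
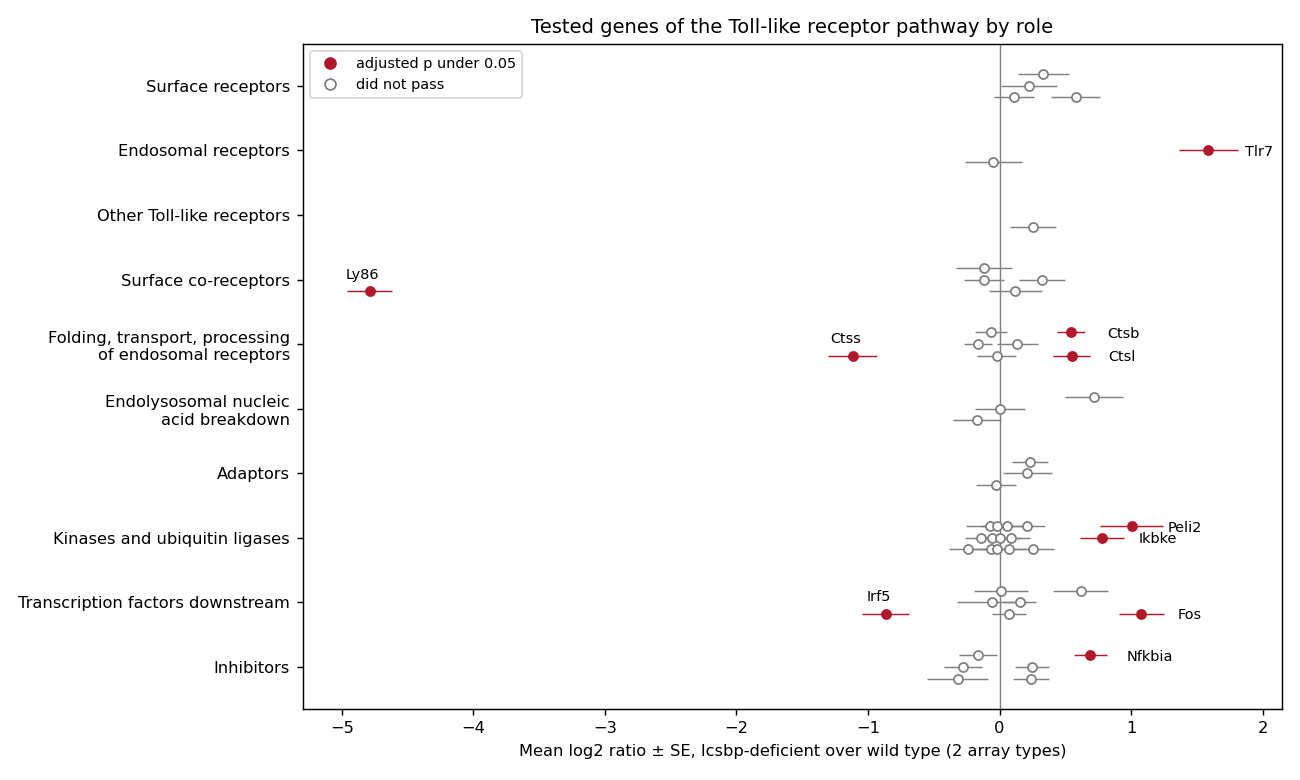
Mean log2 ratio of Icsbp-deficient over wild type (x axis, bars are moderated standard errors over 2 array types) of each tested gene, grouped by role in the pathway, with filled red points for an adjusted p under 0.05. Ly86 at -4.79 and Tlr7 at 1.59 lie farthest from 0, and 37 of the 46 genes outside the members are not past the test.

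The MOE430_2 array carried 42 more probe sets for 29 of these receptor and pathway genes, and 0 for the members. Each had 1 Icsbp-deficient and 1 wild type value, so there was no test. Of the 42, 2 were at least 2-fold higher in Icsbp-deficient GMP and 0 at least 2-fold lower (4.76%), against 6.73% past that fold either way over the 22411 probe sets found only on this array.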

How the data were processed

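RNA of sorted GMP was read on 4 Affymetrix arrays. The deposited values are linear signal intensities, 1 per probe set, with 22690 probe sets on 430A and 45101 on MOE430_2 arrays. Per the labels' protocols, RNA for the Icsbp-deficient 430A array went through an ENZO kit and that for both MOE430_2 arrays through a one-cycle kit, while the labels name none for the wild type 430A array. Of the software, the submitters' processing notes name GCOS for the MOE430_2 arrays.

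The 22626 shared probe sets, without controls, were set to a trimmed mean of 500 on each array (2% cut from each end). After an offset of 50 and log2, quantile normalization was run within each array type. The filter removed probe sets with a mean under the 40th percentile, and each gene took the brightest of its tested probe sets. These 7820 genes were fitted in R 4.3.3 with limma 3.58.1 (genotype and array type as terms, two-sided, trended eBayes, Benjamini-Hochberg over all genes), on 1 residual and 9.65 prior degrees of freedom. The number of arrays limits the precision. The p-values rest on the gap between the ratios of the array types and on a variance shared across genes. Pool, array type and labelling kit are mixed in that gap, so the p-values do not measure the spread between mice or pools. The fit was also run on simulated data with known changes. The noise there was drawn independently for each probe set and array, with no effect of pool or labelling kit. That run therefore does not bear on those effects. Symbols were those of the platform annotation, updated through RefSeq's GRCm38.p6 table (20351 of 20380 probe sets with 1 symbol). Genes named are all members, pathway genes that passed or lay over 0.5, the 5 nearest to Tlr7 and some examples. The members, lists and settings were chosen with earlier results of these data known, and no list was tested as a set. A further Icsbp-deficient preparation in the design text was not analysed here.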

Additional observations from a re-analysis of the deposited data

How the results depend on the processing

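The 579 calls over all genes became 330 without the intensity trend, 287 without the filter, 1 without array type as a block (no replicate block) and 0 with the values as deposited (limma; 14 genes at an unadjusted p under 0.05), and lay between 32 and 36 when 1 array was left out in the unblocked model. The 9 calls among further pathway genes became 5, 5, 1 and 0 (1 gene at an unadjusted p under 0.05) in the same order, and 1 with any array left out. Tlr7 was the 1 member called, and 0 members passed without the block (1 member at an unadjusted p under 0.05), with any array left out (0 or 1), with the values as deposited (0) or with the 60th percentile filter (0). Tlr7 lay under the filter in the last 2 settings and was not tested there. In the other settings with all 4 arrays its ratio was between 1.55 and 2.19, with 1 array left out between 1.44 and 1.74, and on the array types alone 1.80 (430A) and 1.37 (MOE430_2). The surface median was 0.35 with an offset of 16 and 0.35 with a floor of 50, and 0.24 to 0.50 with 1 array left out; the endosomal median was 0.10 to 0.38 with 1 array left out. With the values as deposited the median of all tested genes moved to -0.67, the surface median to -0.29, Tlr1 to -0.24, Tlr2 to -0.53, Tlr5 to -0.34, Tlr6 to -0.10, Unc93b1 to -0.64 and Myd88 to -0.52, all above that median. That setting keeps the unequal scale of the 430A arrays. With 1 array left out Tlr5 ranged from -0.39 to 0.84, negative without the Icsbp-deficient 430A (-0.39) or wild type MOE430_2 array (-0.27). Tlr9 ranged from -0.22 to 0.12, positive without the Icsbp-deficient MOE430_2 (0.10) or wild type 430A array (0.12). Without the block, such values also hold the difference between array types. Signals below the offset, as for Tlr3, limit what these arrays can resolve. Member probe sets on the MOE430_2 array alone numbered 0, so that alternative gave no value. The fit over all tested probe sets and quantile normalization over all 4 arrays were added after seeing the data. Unc93b1 was at -0.0018 on the MOE430_2 arrays alone. With 1 array left out Myd88 ranged from 0.01 to 0.45 and Unc93b1 from 0.06 to 0.20.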

Other observations

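Among probe sets found only on the MOE430_2 array, with 1 value for each genotype, those at least 2-fold higher in Icsbp-deficient GMP were 1 of Zc3h12a and 1 of Tlr4. Zc3h12a, a ribonuclease that limits cytokine transcripts, had scaled signals of 149 in Icsbp-deficient and 39.7 in wild type GMP, and Tlr4 had 179 and 59.9. Other probe sets of these genes did not reach that fold on the same arrays. The shared Zc3h12a probe set, under the filter, had a log2 ratio of -0.26. The shared Tlr4 probe sets were at 0.07 and 0.48, and the other found only on this array was at 0.10. Ticam1, the adaptor of Tlr3 and Tlr4, had scaled signals of 389.9 in Icsbp-deficient and 245 in wild type GMP, a log2 ratio of 0.63. Irak2, a kinase of the Myd88 complex, had 616 and 438, a log2 ratio of 0.49. The profilin receptor Tlr12 had 42.3 and 21.4 on 1 probe set and 28.6 and 5.50 on the other, and Tlr13, a receptor for bacterial ribosomal RNA, had 30.5 and 10.4, all below the offset of 50.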
